A study of Mus musculus with 6 samples.

Results

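Ifitm1, Ifitm2 and Ifitm3 encode small interferon-induced transmembrane proteins, and their RNA levels were followed through 6 libraries of mouse Th17 cells. These 3 genes were chosen by name out of the 55450 genes of the deposited tables. Ifitm1 had drawn attention because it was among the genes that differed between the ADAR2 WT and ADAR2 E396A cultures, and Ifitm2 and Ifitm3 were added as its family neighbours. The differences between the constructs are therefore described for these genes without a test. Tests were run on comparisons that the choice did not use, which were the mean of both constructs against the empty vector and donor B against donor A.

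The cells were naive CD4+ T cells of wild-type mice aged 8 to 12 weeks, activated through CD3 and CD28 and polarized to Th17 by means of IL-6 and TGF-beta. All 3 groups received a murine stem cell virus (MSCV) retrovirus at 24 h and were cultured for a further 48 h, so that the cells were collected at 72 h. The empty vector group carried the virus without an insert, the ADAR2_WT group overexpressed the RNA deaminase ADAR2, and the ADAR2_E396A group overexpressed its enzymatically dead form. Each group held 2 libraries, and the series' design text gives 2 mice, each the source of cells for all 3 groups. The mice are called donors A and B here, and which library belongs to which of them was inferred from the authors' deposited statistics, since no label says. No source used here says whether transduced cells were sorted, or gives the strain or sex of the mice.

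The IFITM proteins sit in the plasma membrane and in endosomal membranes, where they hinder the fusion of enveloped viruses with the cell. Type I interferon raises their genes through the kinases JAK1 and TYK2 and transcription factors, IRF9 among them, that bind interferon-stimulated response elements. Their basal level in lymphocytes does not require an infection. ADAR2, the product of Adarb1, acts on double-stranded RNA, in which it turns adenosine into inosine.

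The libraries held 16496328 to 21897166 reads assigned to genes. Adarb1, the overexpressed gene, had normalized counts of 3672 (donor A) and 3333 (donor B) when the vector was empty. With ADAR2 WT it reached 18423 and 18999 and with ADAR2 E396A 15644 and 14920, so every construct library lay above both empty vector libraries. These reads include those of the cells' own gene. The T cell genes Cd4 (12013 to 15997 normalized counts) and Cd3e (3731 to 4742) and the Th17 cytokine gene Il17a (2437 to 18145) were present in every library. Among markers of other cells, Ms4a1 of B cells and Ncr1 of NK cells had 0 reads in all 6 libraries. Other markers of these lists were present: Ebf1 of the B cell list had 702 to 1265 normalized counts, Pecam1 of the endothelial list 196 to 338 and Cd8b1 of CD8 T cells 112 to 158. Cd79a and Cd79b of the B cell list had 6.80 to 39.4 and 15.8 to 24.3. Of 10 myeloid markers 3 had enough reads to be tested, Cd68 (33.0 to 61.0), Cd14 (4.17 to 30.0) and Mpeg1 (5.91 to 30.0). In the summed counts of 11 Th17 markers, donor A had 56736 to 65230 and donor B 70820 to 103018 normalized counts. Not every marker on this list was higher in donor B. Il17f, 20.1% of the sum, had 6646, 10201 and 5202 with the empty vector, ADAR2 WT and ADAR2 E396A in donor A. In donor B it had 14443, 20715 and 31376. Cd3g, in the same order, had 10959, 7942 and 9104 in donor A and 6902, 6290 and 8403 in donor B.

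The 3 genes lie side by side on chromosome 7 (GRCm38, GENCODE vM21). Ifitm2 (ENSMUSG00000060591.9) spans 140954837 to 140955987 on the minus strand. Ifitm1 (ENSMUSG00000025491.14) follows after a gap of 11.2 kb, at 140967221 to 140969825 on the plus strand. Ifitm3 (ENSMUSG00000025492.6) lies another 39.8 kb on, at 141009586 to 141010770 on the minus strand. All 3 are protein coding, with 1094, 655 and 678 exon bases for Ifitm1, Ifitm2 and Ifitm3.

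Their coding sequences are close to each other, which bears on how reads can be placed. Ifitm1 was identical to Ifitm2 and to Ifitm3 at 82.1% of the 318 coding bases aligned, and Ifitm2 to Ifitm3 at 80.9% of 408. Of all 50-base windows of each gene's transcripts, 5.02% of those of Ifitm1, 10.02% of those of Ifitm3 and 48.5% of those of Ifitm2 also occurred in another gene. One source of the Ifitm2 share is Gm45717, a readthrough model, which contains 268 of its 655 exon bases. Windows of Ifitm2 also occurred in Ifitm3 and in further Gm genes, and the share was not split by gene. Gm45717 was listed at 0 reads in every library. The level of Ifitm2 is the least certain of the 3, since reads in the shared bases may not have been counted.

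The promoters were set side by side because interferon response elements are a sequence feature that the choice of the genes did not use. RefSeq promoter windows (GRCm38.p6, 250 bases before to 50 after the start site) were found for all 3 genes. They are printed 5′ to 3′ on the strand of the gene, with matches to the core of the interferon-stimulated response element, GAAANNGAAA, in capitals.
Ifitm1: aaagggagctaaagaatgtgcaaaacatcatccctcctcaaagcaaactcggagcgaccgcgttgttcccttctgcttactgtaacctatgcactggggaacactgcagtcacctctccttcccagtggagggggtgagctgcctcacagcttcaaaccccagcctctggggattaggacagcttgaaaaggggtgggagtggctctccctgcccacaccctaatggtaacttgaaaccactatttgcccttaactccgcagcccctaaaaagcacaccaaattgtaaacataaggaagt
Ifitm2: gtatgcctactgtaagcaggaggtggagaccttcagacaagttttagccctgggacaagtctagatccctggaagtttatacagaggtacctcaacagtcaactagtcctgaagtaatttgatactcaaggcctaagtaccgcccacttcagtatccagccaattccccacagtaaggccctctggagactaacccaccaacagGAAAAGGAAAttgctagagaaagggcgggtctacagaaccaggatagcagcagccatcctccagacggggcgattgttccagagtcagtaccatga
Ifitm3: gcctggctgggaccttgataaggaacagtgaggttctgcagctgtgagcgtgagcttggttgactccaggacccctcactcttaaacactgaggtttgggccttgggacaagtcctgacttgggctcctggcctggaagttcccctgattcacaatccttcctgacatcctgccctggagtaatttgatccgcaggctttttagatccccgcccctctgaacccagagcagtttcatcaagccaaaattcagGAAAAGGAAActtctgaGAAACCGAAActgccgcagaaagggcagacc
The windows are chr7:140967826-140968125 for Ifitm1, chr7:140955912-140956211 for Ifitm2 and chr7:141010695-141010994 for Ifitm3. The RefSeq start of Ifitm1 lies inside the GENCODE gene body, so a more upstream start is not covered.

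Both strands were searched. The core was present once in Ifitm2, from base -46 to -37 counted from the start site at 0, and in Ifitm3 at bases 2 to 11 and 19 to 28. The Ifitm1 window had no match. The same core was found in 3.44% of all 32851 RefSeq promoter windows, and 3.99% of the 27025 genes with a window held it. Among interferon genes, 16 of 32 type I effectors with a window and 10 of 15 interferon gamma-induced genes held it. A STAT-type palindrome, TTCNNNGAA, was found in 8.30% of all windows and, of the 3 genes, in Ifitm3 alone, at bases 13 to 21, where it overlaps the downstream core. These matches describe the letters of the windows and were not tested for binding.

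Ifitm1, whose protein is found largely at the cell surface, varied most among the 3 genes. Its spread between the constructs partly restates its choice. In donor A Ifitm1 stood at 1219 normalized counts with the empty vector, 792 with ADAR2 WT and 1645 with ADAR2 E396A. In donor B the values in the same order were 578, 306 and 592. In each donor the ADAR2 WT library was the lowest and the ADAR2 E396A library the highest, and every library of donor A was above every library of donor B. Behind these values stood 265 reads in the lowest library and 1670 in the highest.

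Ifitm2, whose product is found largely in endosomes, varied less. Donor A gave 1239, 1189 and 1496 normalized counts with the empty vector, ADAR2 WT and ADAR2 E396A. Donor B gave 818, 791 and 1001. The ADAR2 E396A library was again the highest of each donor, whereas the other 2 libraries of a donor lay close together. As for Ifitm1, the donors did not overlap.

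Ifitm3, the family member best known for blocking influenza virus, followed another order. Donor A gave 474 normalized counts for the empty vector, 650 for ADAR2 WT and 717 for ADAR2 E396A. In donor B the same groups gave 433, 490 and 497. All 4 construct libraries lay above both empty vector libraries, although the lowest of them exceeded the highest empty vector library by little. In the empty vector cells the donors were close.

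**Figure D1:**
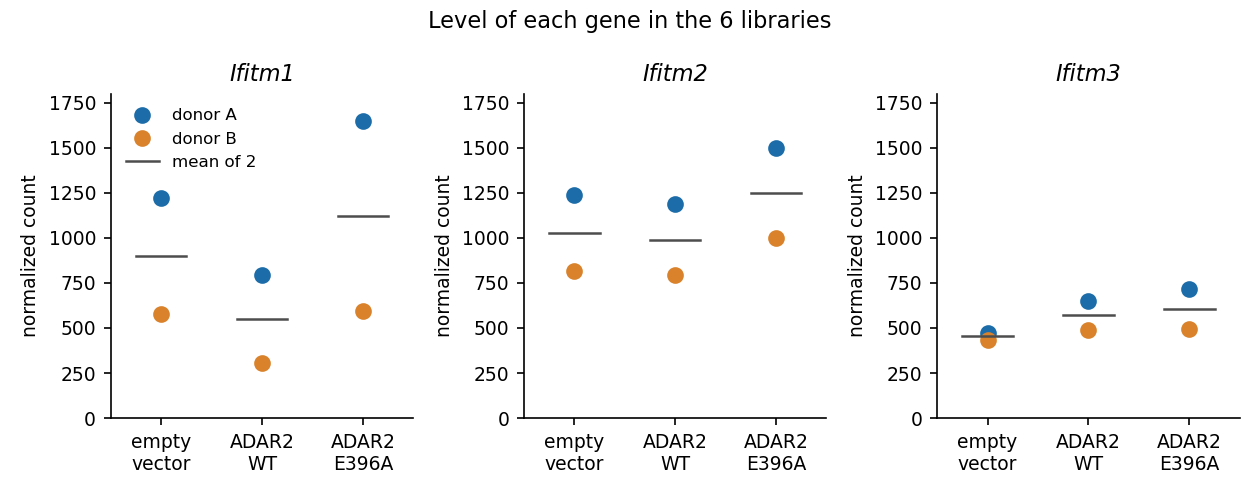
Normalized counts (y axis, linear from 0) of Ifitm1, Ifitm2 and Ifitm3 in the empty vector, ADAR2 WT and ADAR2 E396A libraries (x axis), with 1 point per library coloured by donor and a line at the mean of the 2 libraries. Ifitm1 ran from 306 to 1645 with the ADAR2 WT library lowest in each donor, while all 4 construct libraries of Ifitm3 lay above its empty vector libraries.

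Per exon length, Ifitm2 was the most abundant. With the empty vector it had 95.1 and 65.2 FPKM (reads per kb of exon, scaled to library size) in donors A and B, Ifitm1 had 56.1 and 27.6, and Ifitm3 had 35.1 and 33.4. Counted over the 387 exon bases that Ifitm2 shares with no other gene, its values were 161 and 110. The order of Ifitm1 and Ifitm3 depended on the library. In donor A with the empty vector and with ADAR2 E396A (78.4 against 55.1) Ifitm1 was the higher, and in the other 4 libraries Ifitm3 was. With ADAR2 WT in donor B the values were 14.7 for Ifitm1 and 38.0 for Ifitm3.

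The differences of the constructs from the empty vector were opposite in sign for Ifitm1 and both positive for Ifitm3. For Ifitm1 the log2 difference of ADAR2 WT from the empty vector was -0.77 (SE 0.11, limma), made of -0.62 in donor A and -0.92 in donor B. That of ADAR2 E396A was 0.23 (SE 0.11), made of 0.43 in donor A and 0.03 in donor B, so in donor B the ADAR2 E396A library hardly departed from its empty vector. The log2 difference between ADAR2 WT and ADAR2 E396A, the one that led to the choice of Ifitm1, was -1.002 (SE 0.11), with -1.05 and -0.95 in the 2 donors.

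Ifitm2 had a log2 difference of -0.05 (SE 0.07) with ADAR2 WT, which is smaller than its standard error. With ADAR2 E396A it was 0.28 (SE 0.07), at 0.27 in donor A and 0.29 in donor B. Ifitm3 had positive differences with both, 0.32 (SE 0.11) with ADAR2 WT and 0.40 (SE 0.11) with ADAR2 E396A. In both comparisons donor A carried the larger Ifitm3 difference, 0.45 and 0.60 against 0.18 and 0.20 in donor B. Between ADAR2 WT and ADAR2 E396A, Ifitm3 differed by -0.08 (SE 0.11), and this value was 0.05 when the donor A library of ADAR2 E396A was dropped. The 3 comparisons share libraries and are not independent of each other.

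In the authors' deposited table, turned so that positive values mean higher with the construct, Ifitm1 had a log2 fold change of -0.76 (standard error 0.17) with ADAR2 WT and 0.24 (0.19) with ADAR2 E396A. For Ifitm2 the authors' deposited table gave -0.05 (0.14) with ADAR2 WT and 0.28 (0.17) with ADAR2 E396A, and for Ifitm3 it gave 0.32 (0.19) and 0.40 (0.22). The directions were the same as in the limma fit, while the standard errors were larger.

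**Figure D2:**
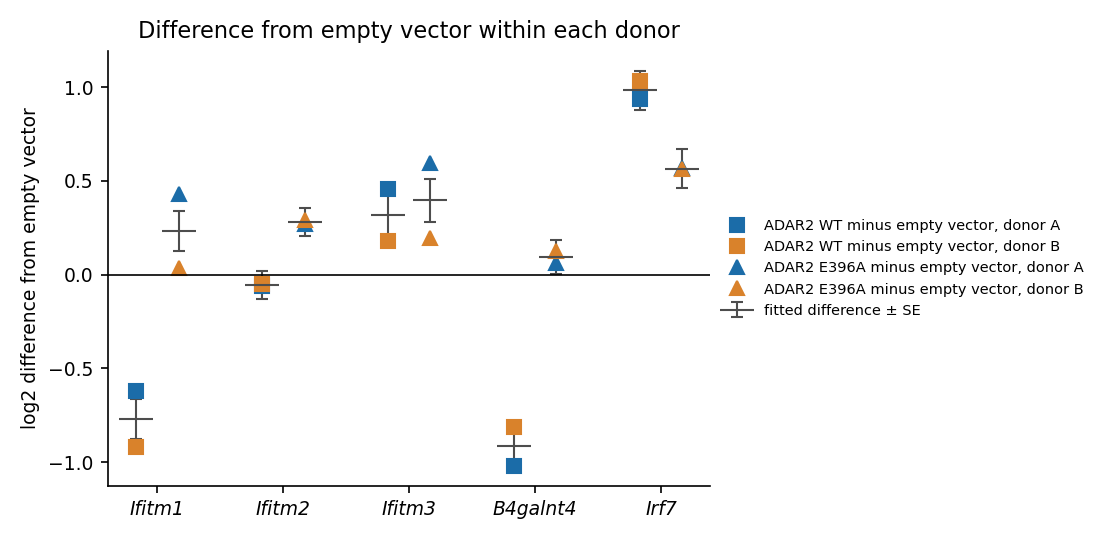
Log2 differences from the empty vector (y axis) for the 3 Ifitm genes, B4galnt4 and Irf7 (x axis), with squares for ADAR2 WT and triangles for ADAR2 E396A, coloured by donor, and bars for the fitted difference ± SE. Ifitm1 lay at -0.62 and -0.92 with ADAR2 WT but at 0.43 and 0.03 with ADAR2 E396A, and Ifitm3 lay above 0 in all 4.

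The mean of both constructs against the empty vector was tested for the members. None of the 3 had an adjusted p under 0.05 by limma, whereas 10 of 14958 genes (0.0669%) did. For Ifitm1 the log2 difference was -0.27 (SE 0.09, adjusted p = 0.523 by limma), a mean of the opposite differences given above. Ifitm2 had 0.11 (SE 0.06, adjusted p = 0.677 by limma). Ifitm3 had 0.36 (SE 0.10, adjusted p = 0.403 by limma). This was 0.53 in donor A and 0.19 in donor B, or 1.28-fold over both. By edgeR and DESeq2 0 of the 3 passed either, while by limma Ifitm1 and Ifitm3 had an unadjusted p under 0.05. So did 1211 of the 14958 genes. With 1 library left out, the Ifitm3 difference ran from 0.19 when donor A's empty vector library was dropped (adjusted p = 0.945 by limma) to 0.53 when donor B's was (adjusted p = 0.0541). It passed in 1 of these 6 settings, without the donor B library of ADAR2 E396A (0.42, adjusted p = 0.00295 by limma), where 643 genes passed in place of 10.

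Between the 2 donors Ifitm1 and Ifitm2 differed and Ifitm3 missed the threshold. Ifitm1 was 2.47-fold lower in donor B, a log2 difference of -1.31 (SE 0.09, adjusted p = 0.000424 by limma), and was lower in 3 of 3 groups by -1.07 with the empty vector, -1.37 with ADAR2 WT and -1.47 with ADAR2 E396A. For Ifitm2 the difference was -0.59 (SE 0.06, adjusted p = 0.00180 by limma) and nearly the same in each group, at -0.60, -0.59 and -0.58. Ifitm3 had -0.35 (SE 0.09, adjusted p = 0.0573 by limma), with only -0.13 in the empty vector cells. In this comparison 7.51% of all genes passed and 3.80% passed as lower in donor B.

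Dropping the donor A library of ADAR2 WT raised Ifitm2 above the threshold (adjusted p = 0.0562 by limma), and leaving out an empty vector library brought Ifitm3 under it (adjusted p = 0.0113 without that of donor A and 0.0127 without that of donor B, by limma). The donor test compares the cultures of 2 mice, so the mouse and anything else its cultures shared cannot be told apart.

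The make-up of the joint reads of the 3 genes restates their unequal differences, the ADAR2 WT difference of Ifitm1 that led to its choice included, and is given as a description. Ifitm1 gave 41.6% of the reads of the 3 genes in the empty vector library of donor A (95% Wilson interval 39.8 to 43.4), 30.1% with ADAR2 WT (28.4 to 31.9) and 42.6% with ADAR2 E396A (41.1 to 44.2). In donor B its shares were 31.6% (29.5 to 33.8), 19.3% (17.3 to 21.4) and 28.3% (26.6 to 30.2). These intervals cover counting error only.

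The Ifitm3 share was highest with ADAR2 WT in each donor. It ran from 16.2% with the empty vector in donor A (14.8 to 17.6) to 30.9% with ADAR2 WT in donor B (28.5 to 33.4). The reads of Ifitm1 per read of Ifitm3 fell within donor A from 2.57 with the empty vector to 1.22 with ADAR2 WT, against 2.29 with ADAR2 E396A. Within donor B they were 1.33, 0.624 and 1.19. Such a ratio is free of the scaling between libraries.

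**Figure D3:**
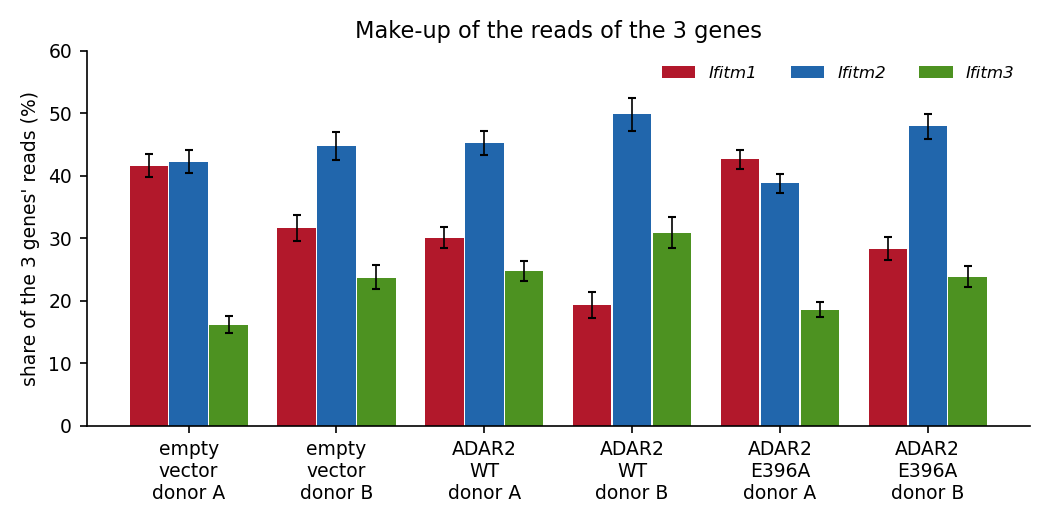
Share of each gene in the joint reads of Ifitm1, Ifitm2 and Ifitm3 (y axis, percent) in each of the 6 libraries (x axis), with 95% Wilson intervals. The Ifitm1 share was 30.1% and 19.3% with ADAR2 WT in donors A and B, below its 41.6% and 31.6% with the empty vector.

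The remaining family members were hardly detected. Ifitm5, known from bone-forming cells, had 5 to 17 reads a library, and Ifitm6 had 6 to 37. Ifitm10 had 1 read in 1 library. Ifitm7 had 0 reads in all 6, which allows up to 3 reads, or 2.61 to 3.46 normalized counts, in each. Ifitm5 and Ifitm6 passed the filter on low counts and passed no comparison, with standard errors of 0.45 to 0.55 on the log2 scale. The reads of these genes were highest in donor A with a construct, where Ifitm6 had 29 and 37 reads against 12 with the empty vector.

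Whether the pattern of Ifitm1 was shared along the chromosome was read from the 39 other genes within 250 kb of the cluster. Of these, 18 reached a mean of 10 normalized counts and all 18 were tested. With ADAR2 WT, 1 of the 18 changed, where 0.816% of all genes did. That gene was B4galnt4, a glycosyltransferase gene 50.3 kb beyond Ifitm3, and it was also the 1 of the 18 that passed between the donors, where 7.51% of all genes did. B4galnt4 had already been seen among the genes that differed between ADAR2 WT and ADAR2 E396A. The 1 of 18 with ADAR2 WT rests on the same ADAR2 WT libraries, partly restates this and is given as a description. B4galnt4 had 1204 normalized counts with the empty vector, 593 with ADAR2 WT and 1255 with ADAR2 E396A in donor A. In donor B it had 620, 353 and 677, so its order over the libraries was that of Ifitm1 within each donor.

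B4galnt4 fell with ADAR2 WT by 0.92 on the log2 scale (SE 0.09, adjusted p = 0.00772 by limma). It was lower in donor B, at -0.86 (SE 0.07, adjusted p = 0.000983 by limma), in 3 of 3 groups. Between ADAR2 WT and ADAR2 E396A its difference was -1.01 (SE 0.09, adjusted p = 0.0120 by limma), where 0.0669% of all genes passed. It had been seen among the genes of that comparison before the neighbourhood was examined, as had Ifitm1. Both of its ADAR2 WT calls use the libraries of that comparison, so their p-values are given as a description. Its call against the empty vector was lost when either ADAR2 WT library was dropped (adjusted p = 0.555 for donor A and 0.0993 for donor B, by limma) and without the donor term (adjusted p = 0.787). The call between the constructs was lost in the same settings (adjusted p = 0.994, 0.0920 and 0.911 by limma).

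The ADAR2 WT library was the lowest of each donor for 5 of the 18 neighbours (B4galnt4, Pkp3, Sigirr, Rnh1 and Gm5905), as it was for 18.3% of all genes tested. Ifitm6, the neighbour between Ifitm3 and B4galnt4, had 0.67 (SE 0.55, adjusted p = 0.624 by limma) with ADAR2 WT and -1.38 (SE 0.45, adjusted p = 0.111 by limma) between the donors. Pgghg, 7.17 kb from Ifitm2, had log2 differences of -0.01 (SE 0.11) with ADAR2 WT and -0.01 (SE 0.09) between the donors. Pkp3, which encodes a plakophilin of the desmosome and lies beyond B4galnt4, had -0.35 (SE 0.11, adjusted p = 0.217 by limma) with ADAR2 WT and 0.00 (SE 0.09) between the donors. Rnh1, which encodes a ribonuclease inhibitor, had -0.19 (SE 0.07, adjusted p = 0.301 by limma) with ADAR2 WT and -0.04 (SE 0.06) between the donors. Pkp3 and Rnh1 were thus lower with ADAR2 WT at an unadjusted p under 0.05 only, which 2108 of 14958 genes had in either direction. The same held for Ptdss2 (-0.35, SE 0.11, adjusted p = 0.222 by limma), which was lower with ADAR2 E396A as well (-0.27, SE 0.11). Sigirr, a negative regulator of interleukin-1 receptor signalling, had -0.06 (SE 0.08) with ADAR2 WT and -0.12 (SE 0.07) between the donors.

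**Figure D4:**
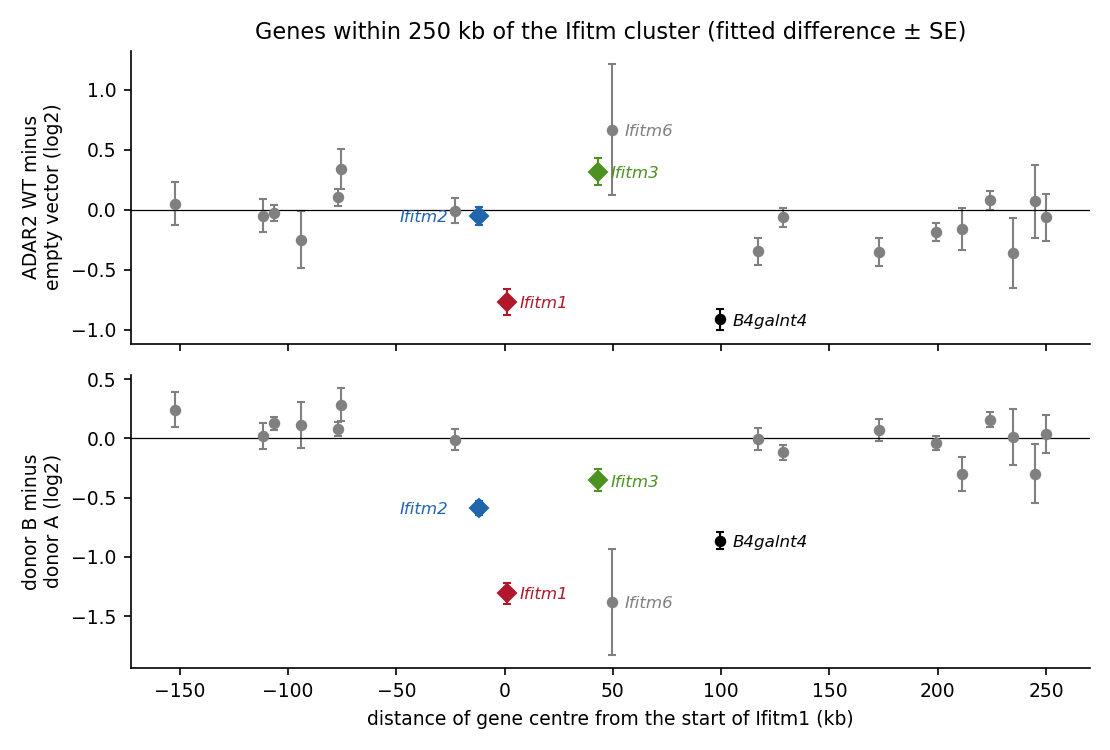
Fitted log2 differences ± SE of ADAR2 WT from the empty vector (upper panel) and of donor B from donor A (lower panel) for the 3 Ifitm genes (diamonds) and the 18 neighbours (circles), against the distance of each gene's centre from the start of Ifitm1 in kb. Ifitm1 and B4galnt4 lay at -0.77 and -0.92 in the upper panel and at -1.31 and -0.86 in the lower, with Pgghg near 0 in both. The upper-panel values of Ifitm1 and B4galnt4 share their ADAR2 WT libraries with the comparison in which both had been seen beforehand.

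The interferon pathway was then set beside the family, beginning with the ligands. Of 12 interferon genes, 10 had any reads and Ifng alone passed the filter on low counts. Ifng, which encodes interferon gamma, had 233, 181 and 399 normalized counts with the empty vector, ADAR2 WT and ADAR2 E396A in donor A and 213, 100 and 141 in donor B. Within donor A its order was that of Ifitm1, whereas within donor B the empty vector library was highest. Its log2 difference with ADAR2 WT was -0.72 (SE 0.27, adjusted p = 0.283 by limma).

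Among 8 tested genes for interferon receptors and their kinases, 1 rose with ADAR2 WT, where 0.441% of all genes rose, and 1 was higher in donor B, where 3.71% of all genes were. Jak2, a kinase of the interferon gamma receptor, rose by 0.46 (SE 0.07, adjusted p = 0.0352 by limma). Ifnar1, a chain of the type I interferon receptor, was higher in donor B by 0.30 (SE 0.06, adjusted p = 0.0176 by limma). Ifngr1, which binds interferon gamma, had -0.49 (SE 0.12, adjusted p = 0.139 by limma) with ADAR2 WT.

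Of 13 signalling regulators, 2 rose with ADAR2 WT (0.441% of all genes) and 4 were higher in donor B (3.71% of all genes). Irf7, a transcription factor that amplifies the type I response, lies 252 kb from Ifitm3 on the same chromosome. It had 168, 321 and 249 normalized counts with the empty vector, ADAR2 WT and ADAR2 E396A in donor A and 365, 749 and 540 in donor B. Every library of donor B exceeded every library of donor A, the reverse of Ifitm1, and ADAR2 WT was the highest of each donor.

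Irf7 rose with ADAR2 WT by 0.98 (SE 0.10, adjusted p = 0.0125 by limma) and was higher in donor B by 1.15 (SE 0.09, adjusted p = 0.000595 by limma). It also passed for the mean of both constructs, at 0.77 (SE 0.09, adjusted p = 0.0318 by limma). The ADAR2 WT call of Irf7 was lost without the ADAR2 WT library of donor A (adjusted p = 0.555 by limma) or donor B (0.207) and without the donor term (0.801). Its call for the mean of both constructs was lost in the same settings (adjusted p = 0.521, 0.296 and 0.999 by limma) and when donor A's empty vector library was dropped (0.0730). Usp18, which restrains the type I receptor, was the other regulator to rise with ADAR2 WT (0.93, SE 0.15, adjusted p = 0.0371 by limma). Stat2, a signal transducer of the type I receptor, had 0.34 (SE 0.08, adjusted p = 0.109 by limma) with ADAR2 WT and did not pass.

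The type I interferon-induced effectors, to which the Ifitm genes are usually counted, had mostly positive differences where that of Ifitm1 was negative. Of 41 effectors tested (the Ifitm genes not among them), 8 rose with ADAR2 WT and 0 fell (1 was lower at an unadjusted p under 0.05 by limma), where 0.441% of all genes rose and 0.374% fell. The log2 difference was positive for 38 of the 41, with a median of 0.45 against 0.00 over all genes tested. Isg15, a ubiquitin-like modifier, rose by 1.31 (SE 0.16, adjusted p = 0.0177 by limma). With ADAR2 E396A 0 of the 41 passed, where 0.0134% of all genes did, and their median was 0.17. By edgeR and DESeq2 the number was also 0. At an unadjusted p under 0.05 by limma 10 of the 41 were higher, where 582 of 14958 genes differed in either direction. Normalized counts of Isg15 were 67.7, 158 and 102 with the empty vector, ADAR2 WT and ADAR2 E396A in donor A and 166, 443 and 211 in donor B. Ifih1, which encodes the double-stranded RNA sensor MDA5, rose by 0.57 (SE 0.09, adjusted p = 0.0371 by limma). The lowest value on the list was that of Ifi27, at -0.43, so that Ifitm1 (-0.77) lay below all 41 and Ifitm2 and Ifitm3 lay within their range. The low place of Ifitm1 partly restates its choice, which used the same ADAR2 WT libraries, and is given as a description.

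Between the donors most effectors differed as well. Of the 41 effectors, 28 were higher in donor B, where 3.71% of all genes were, and 0 were lower (also 0 at an unadjusted p under 0.05 by limma), and 40 of 41 had a positive difference, with a median of 0.57 against 0.00 over all genes. The single negative value was -0.04, for Ifi27, so all 3 Ifitm genes lay below the whole list. Xaf1 (0.95, SE 0.10, adjusted p = 0.00166 by limma) and Parp14 (0.62, SE 0.09, adjusted p = 0.00648 by limma) were among those higher. The number higher in donor B fell when either ADAR2 WT library was dropped, as did the number of all genes that passed. With ADAR2 WT against the empty vector, 0 effectors passed without the donor term, where 2 of all genes did. The effector calls with ADAR2 WT were lost when either ADAR2 WT library was dropped. More effectors passed when either ADAR2 E396A library was dropped. The number of all genes that passed moved the same way each time.

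Fewer interferon gamma-induced genes passed. Of 21 tested, 0 passed with ADAR2 WT by limma or edgeR and 1 by DESeq2, where 0.816% of all genes passed by limma. Their median log2 difference was 0.13. At an unadjusted p under 0.05 by limma 4 of the 21 were higher, where 2108 of 14958 genes differed in either direction. In donor B 7 of the 21 were higher (median 0.31), where 3.71% of all genes were. Tapbp, which loads peptides on MHC class I, was 0.34 higher in donor B (SE 0.07, adjusted p = 0.0232 by limma). Fewer than these 7 passed when either ADAR2 WT library was dropped, and fewer of all genes passed as well. More than 7 passed without either empty vector library or without the donor B library of ADAR2 E396A, where more of all genes passed too.

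**Figure D5:**
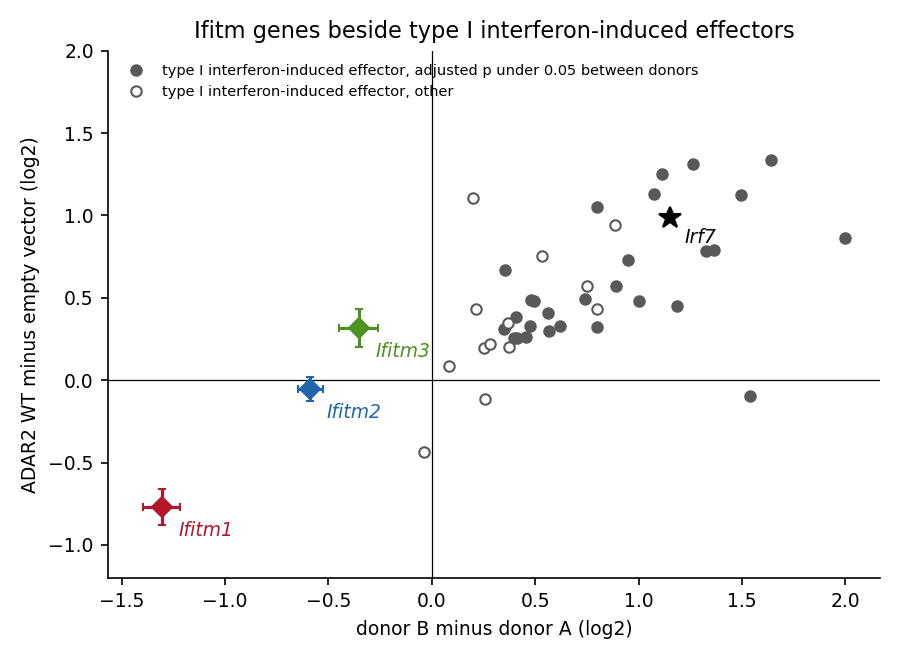
Log2 difference of ADAR2 WT from the empty vector (y axis) against that of donor B from donor A (x axis) for 41 type I interferon-induced effectors (circles, filled where the donor difference passed), Irf7 (star) and the 3 Ifitm genes (diamonds ± SE). The effectors spread to the right of 0, 38 of 41 above 0 on the y axis, while the Ifitm genes lay left of 0, Ifitm1 at -1.31 and -0.77. The y value of Ifitm1 shares its ADAR2 WT libraries with the comparison that led to its choice.

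Of 8 genes that modify or accompany IFITM proteins, 0 passed with ADAR2 WT by limma, edgeR or DESeq2, where 0.816% of all genes passed by limma. At an unadjusted p under 0.05 by limma 1 of the 8 was lower, where 2108 of 14958 genes differed in either direction. Between the donors 2 of the 8 were lower in donor B, where 3.80% of all genes were. Nedd4, a ubiquitin ligase that acts on IFITM3, had 4353, 3891 and 4673 normalized counts with the empty vector, ADAR2 WT and ADAR2 E396A in donor A and 3687, 3198 and 3852 in donor B. It was lower in donor B by a log2 difference of -0.27 (SE 0.05, adjusted p = 0.0167 by limma). Its order within each donor was that of Ifitm1, over a far smaller range. Zdhhc20, a palmitoyltransferase, had -0.16 (SE 0.09) with ADAR2 WT and 0.00 (SE 0.07) between the donors.

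The genes most like each member over the 6 libraries were ranked by Pearson's r of log2 values among 10206 other tested genes whose mean normalized count was 50 or more. Predicted genes with Gm or Rik names were left out of the ranking. With 6 libraries that share 2 donors, high values are common, and r is given as a description. Nearest to Ifitm1 were Mri1, Lancl1, Lyrm9, Nedd4 and Appl2 (r from 0.995 to 0.988). B4galnt4 ranked 66 (r = 0.957), Ifitm2 170 (r = 0.933) and Ifitm3 2239 (r = 0.562). Irf9, a part of the factor that binds interferon response elements, ranked 10139 of 10206 (r = -0.970), and Isg15 ranked 9815 (r = -0.918).

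Nearest to Ifitm2 were Slc25a37, Mdm4, Tfap4, Stk26 and Fanci (r from 0.995 to 0.989). Nearest to Ifitm3 were Snhg5, Xndc1, Mcm2, Zadh2 and Arglu1 (r from 0.987 to 0.974). No gene stood in more than 1 of these groups of 5, and no member stood in the group of another. With groups of 5 out of 10206 genes this says little about how alike the members are. Ifitm1 and Ifitm2 had r = 0.933. The genes nearest to Ifitm1 differed far less than it did, with donor differences of -0.23 for Mri1 and -0.34 for Appl2.

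Other genes moved along with the donors as well. The summed count of 7 CD8 T and NK cell markers was 694 to 2216 in donor A and 227 to 322 in donor B, and 74.8% of it was Gzma, a granule protease. Donor A gave 896, 501 and 2008 normalized counts of Gzma for the empty vector, ADAR2 WT and ADAR2 E396A, and donor B 102, 95.8 and 27.02. Within donor A this was the order of Ifitm1. Of the other 6 markers, Ncr1 had 0 reads and Klrb1c had reads in 1 library, while Cd8a had 9.37 to 23.6 in donor A and 19.6 to 65.2 in donor B. Cd8b1 had no library of ADAR2 WT below its empty vector. Klre1 had 39.6, 10.7 and 29.6 normalized counts with the empty vector, ADAR2 WT and ADAR2 E396A in donor A and 21.4, 15.0 and 33.1 in donor B. Eomes had 13.5, 7.77 and 20.7 in donor A and 21.4, 11.5 and 19.2 in donor B. Klre1 and Eomes thus had ADAR2 WT lowest in each donor, as Ifitm1 did, with log2 differences from the empty vector of -1.14 (SE 0.39, adjusted p = 0.252 by limma) and -0.78 (SE 0.40, adjusted p = 0.415 by limma). Between the donors they differed by -0.08 (SE 0.32) and 0.35 (SE 0.32). Their part in the Ifitm differences was not tested. In RNA from whole cultures, fewer cells with a gene active and less RNA per cell cannot be told apart.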

How the data were processed

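Ribosome-depleted RNA was read on a NovaSeq instrument, per the labels' protocols. The submitters' processing notes name STAR 2.6.1a, featureCounts, DESeq2 1.18.1 and mm10; annotation and use of strand: not given in the sources used here. Per the file headers, both deposited tables (55450 genes) hold a log2 fold change and its standard error, a Wald statistic (a score), p-values, and normalized counts of 4 libraries, which are a signal and no raw counts.

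Each library column was whole reads divided by 1 factor, and 100% of values above 0 came out whole within 0.001 of a read. Columns carry no group or donor label: those in both tables must be the shared empty vector, and the others were given the construct that names their table. Donors were read from the authors' deposited Wald statistics, which a DESeq2 refit returned to within 1e-04 with this pairing (28601 and 28872 genes) and missed by up to 13.8 with donors crossed and 6.67 with no donor term. The labelled replicate that donor A stands for is unknown. The p-values weigh a difference against the spread left between these libraries once group and donor are fitted. They do not measure the spread between mice.

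Reads were scaled by median-of-ratios factors over 6 libraries and filtered with edgeR's filterByExpr, which left 14958 genes. Values of log2(normalized count + 1) were tested with limma 3.58.1 (R 4.3.3; group and donor as terms, trended variance, Benjamini-Hochberg over all genes at 0.05). On this scale changes of low genes are understated. The test was checked on simulated counts. Alternatives were edgeR 4.0.16, DESeq2 1.42.0, TMM factors, other filters and pseudocounts, no donor term, 4 libraries alone and each library left out; edgeR with TMM, and every alternative for the interferon lists, B4galnt4 and Irf7, were added after the data were examined.

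GENCODE vM21 held all 55450 gene IDs. The members and gene lists were chosen with earlier results of these data known. Named were the members, other Ifitm genes, neighbours within 250 kb whose mean normalized count was 10 or more (examples in the text), up to 4 genes per list by empty vector level and up to 6 that passed with a construct (examples in the text), the 5 genes of highest r per member, and Adarb1. Ifi27, Gm45717, Irf9 and single markers were named after their values were seen. One gene named by this rule is not reported here.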

Additional observations from a re-analysis of the deposited data

Results flagged for a closer look

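For Ifitm1, Ifitm2 and the neighbouring gene B4galnt4 the constructs departed from the empty vector in opposite directions in both donors, ADAR2 WT downward and ADAR2 E396A upward. For Ifitm1 the log2 difference between ADAR2 WT and ADAR2 E396A was -1.002. In donor B its ADAR2 E396A difference from the empty vector was only 0.03. Ifitm2 differed by -0.33 between the constructs, with ADAR2 WT differences from the empty vector of -0.06 in donor A and -0.05 in donor B. The fitted ADAR2 WT difference over both donors, -0.05, was smaller than its standard error of 0.07. The differences of Ifitm1 and Ifitm2 between the constructs were not tested, since the first led to the choice of the genes. B4galnt4 differed by -1.01 (adjusted p = 0.0120 by limma), with 0.06 and 0.13 for ADAR2 E396A against the empty vector in donors A and B. B4galnt4, like Ifitm1, had been seen among the genes of that comparison beforehand. The flag was looked for in the 3 members and the 18 neighbours only. It used the signs alone, whatever their size, and was not counted over all genes. As met here it requires ADAR2 WT to be the lowest library of each donor, which held for 18.3% of all genes tested. For Ifitm1 and B4galnt4 it partly restates the comparison in which they had been seen.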

How the results depend on the processing

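The Ifitm log2 differences kept their sign in every alternative run, except that of Ifitm3 between ADAR2 WT and ADAR2 E396A, and their adjusted p where tested changed side only as given in the text and for Ifitm3 between the donors, which passed with edgeR and TMM (adjusted p = 0.0481). The numbers of genes passing depended far more on the setting. For the mean of both constructs, 10 genes became 18 with TMM factors, 21 with no filter, 43 with DESeq2, 2 with no replicate block, 18 by edgeR with TMM, and 2 to 643 with 1 library left out. Between donors, leaving out 1 library gave 112 to 1701. For ADAR2 WT against the empty vector, 122 became 220 with no filter, 58 with a mean of at least 50, 214 with DESeq2, 2 with no replicate block, 1237 with 4 libraries alone and 1 to 1217 with 1 library left out. For ADAR2 E396A, 2 became 5, 7 with DESeq2, 1 with no replicate block, 1 with 4 libraries and 1 to 127 with 1 left out. Between the constructs, 10 became 39 with TMM factors, 102 with no filter, 3 with a mean of at least 50, 109 with DESeq2, 0 with no replicate block by limma (732 at an unadjusted p under 0.05), 194 with 4 libraries, 42 by edgeR with TMM and 0 to 844 with 1 left out. The cause of these changes was not tested. With 2 mice, the spread between mice is barely measured.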
